A study of Mus musculus with 9 samples.

Results

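The metallothioneins Mt1 and Mt2, the zinc-sensing transcription factor Mtf1 and 7 zinc transporters were followed through the differentiation of 3T3-L1 adipocytes. The 10 genes were chosen by name, as the rows of the expression tables whose gene symbol is Mt1, Mt2, Mtf1, Slc30a1, Slc30a5, Slc39a1, Slc39a6, Slc39a8, Slc39a10 or Slc39a14. All 10 were found, among 19094 genes listed in at least 1 sample, and all 10 were among the 13154 genes that passed the filter on low counts. RNA-seq was performed on 3T3-L1 cells, an immortalized mouse line of fibroblast shape that turns into fat-storing adipocytes when induced, at day 0, day 4 and day 8 of differentiation, with 3 samples per day (9 in all). The sequencing depth was 18216114 to 20452144 expected counts per sample.

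Day 0 cells were preadipocytes that had not yet been induced. Differentiation was started with dexamethasone, IBMX and insulin for the first 2 days and was continued with insulin, so that day 4 and day 8 cells were both sampled from insulin medium without dexamethasone or IBMX. No gene was altered in any group, all samples come from a single immortalized line, and there is no culture kept without induction until day 4 or day 8, so the time in culture and the induction cannot be told apart. Per the study's methods, the cells of a stage were pooled at collection and samples were made from mixed RNA, and nothing says that the replicates of a day came from separate cultures, so that the p-values below measure the spread between these samples, which may be technical. The labels call all 9 samples adipocytes. The 10 adipocyte markers examined, with Fabp4 as the most abundant, summed to 27.9 to 30.9 FPKM in the day 0 samples, to 5040, 6166 and 7387 FPKM in day 4 replicates 1 to 3, and to 7614 to 8155 FPKM in the day 8 samples. The marker level of the day 0 samples thus went against the label for the cell type and with the day in the sample titles. In bulk RNA, fewer cells of a type and less RNA per cell cannot be told apart, and this holds for every result below.

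Metallothioneins are small, cysteine-rich proteins that bind zinc and copper in the cytosol and buffer their free concentration. MTF1 enters the nucleus when free zinc rises and binds short sequences called metal response elements in the promoters of Mt1, Mt2 and Slc30a1, and the metallothionein genes are also known to respond to glucocorticoids, cadmium and oxidative stress. Proteins of the SLC30 (ZnT) family move zinc out of the cytosol, across the plasma membrane or into organelles, while those of the SLC39 (ZIP) family bring zinc into the cytosol.

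The promoters of the metallothioneins are shown because they carry the core of the metal response element. The core was searched as TGCACNC or TGCGCNC (N is any base) on both strands, in RefSeq windows of 300 bases (250 before and 50 after the transcription start, build GRCm38.p6). Sequences are on the plus strand, 5′ to 3′, and the capitals mark each match, which reads as GNGTGCA or GNGCGCA where it lies on the minus strand. The Mt2 piece ends just before the RefSeq start of Mt2, and the 2 Mt1 pieces lie just before and across the RefSeq start of Mt1. Positions depend on that choice of start, and sequence outside the windows was not searched.
Mt2, chr8:94172368-94172617: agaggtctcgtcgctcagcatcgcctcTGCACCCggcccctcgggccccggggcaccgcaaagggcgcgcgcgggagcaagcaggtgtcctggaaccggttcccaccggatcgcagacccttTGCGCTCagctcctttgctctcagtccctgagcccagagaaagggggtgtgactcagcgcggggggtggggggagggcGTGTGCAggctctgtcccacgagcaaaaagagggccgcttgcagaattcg
Mt1, chr8:94179056-94179076: ggtcccgctgTGCACACtggc
Mt1, chr8:94179088-94179115: ctcTGCACTCcgcccgaaaagTGCGCTC
Slc30a1, chr1:191906726-191906755: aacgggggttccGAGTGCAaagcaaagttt

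The whole window held 4 matches for Mt2, the fourth of them just after the start. Mt1 held 3 matches and Slc30a1 held 2. Among all 32851 windows, 25.7% held at least 1 match, 7.11% at least 2, 1.97% at least 3 and 0.517% at least 4. Windows were found for 8 of the 10 genes, Slc39a6 and Slc39a14 being the others. Slc30a5 held 1 match, Slc39a8 held 1 in the later of its windows and 0 in the other, and Mtf1, Slc39a1 and Slc39a10 held 0. A match is a run of letters and does not show binding.

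The 10 genes spanned a wide range of levels, given here as FPKM, which is scaled to gene length and can therefore be compared between genes. Mt1 was the most abundant of them on every day and Slc39a8 the least. At day 0 the mean level fell from Mt1 (353.5 FPKM) through Slc39a1, Mt2, Slc39a6, Slc30a5, Slc39a14, Slc39a10, Mtf1 and Slc30a1 to Slc39a8 (0.623 FPKM). The ranges of Slc39a1 and Mt2 overlapped at day 0 and at day 8, so the ranges did not set their order on those days. Within each day 0 sample Slc39a1 was above Mt2, though closely in replicate 3 (58.45 against 58.26 FPKM). In day 8 replicate 3 the order was turned (86.31 against 92.01 FPKM). The ranges of all other neighbours in the order were apart on each day. At day 4, Mt2 lay above Slc39a1 in every sample, and Slc39a14 moved up to the fourth place.

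**Figure D1:**
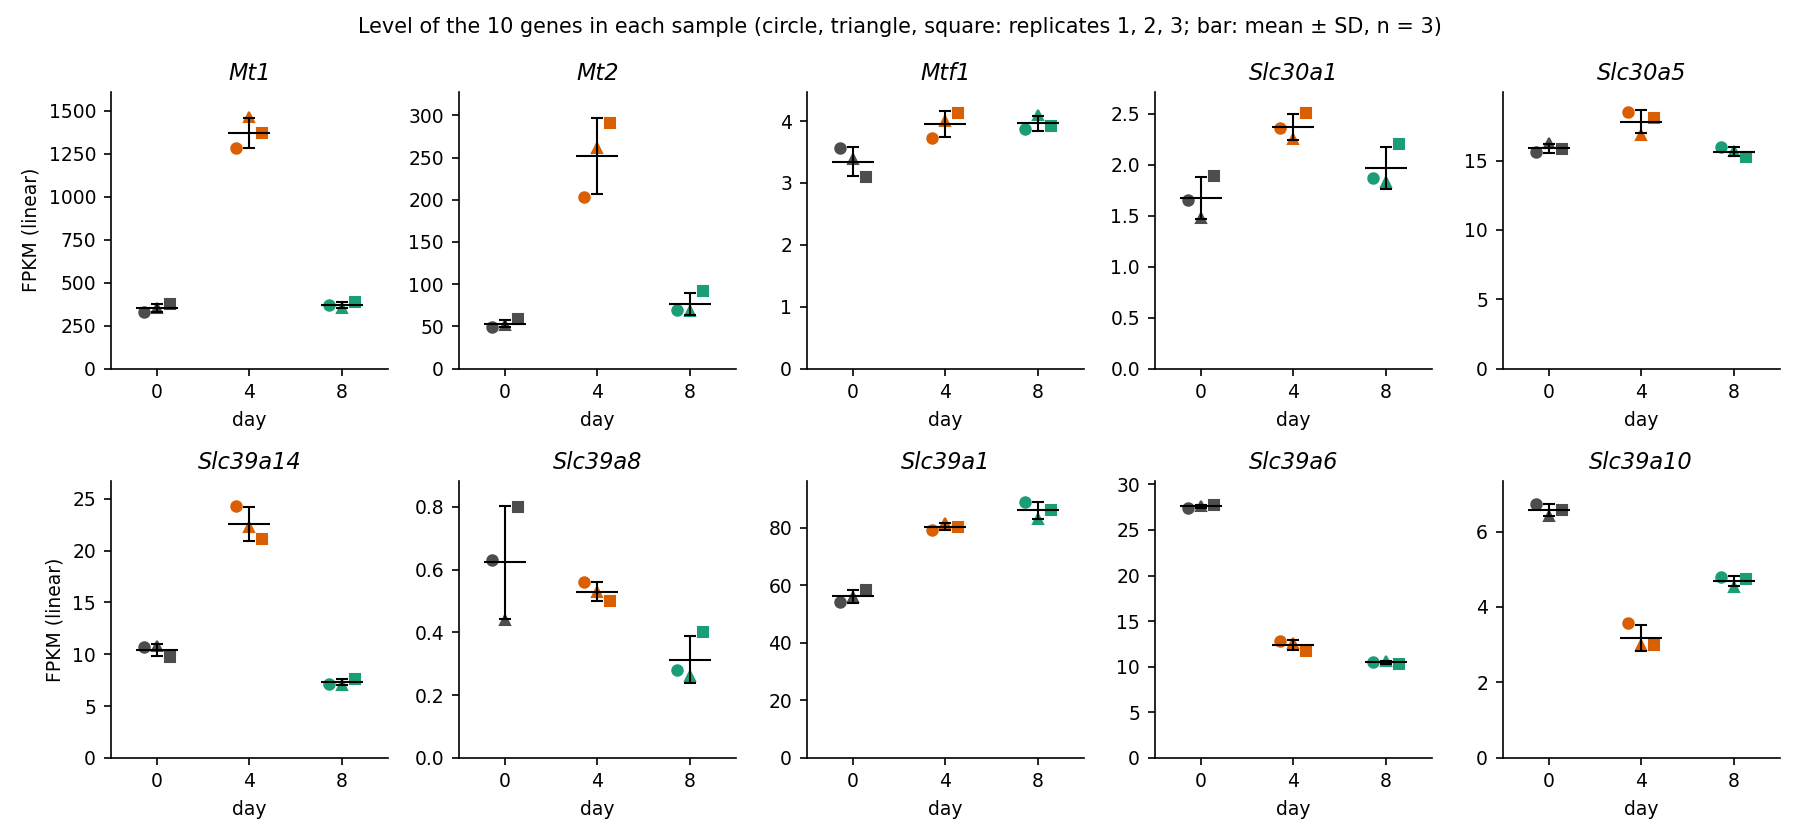
FPKM (vertical axis, linear, from 0) of each of the 10 genes by day (horizontal axis). Each symbol is a sample, with circle, triangle and square for replicates 1, 2 and 3, and the horizontal line and error bar give the mean ± SD (n = 3 per day). Mt1, Mt2 and Slc39a14 peak at day 4, Slc39a10 is lowest at day 4, Slc39a6 is highest at day 0 and Slc39a1 climbs from day 0 to day 8.

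Mt1, the more abundant of the 2 metallothioneins, had 330.1, 353.5 and 377.0 FPKM in day 0 replicates 1 to 3, 1287, 1463 and 1371 FPKM at day 4, and 370.9, 350.6 and 389.6 FPKM at day 8. Every day 4 sample was far above every other sample, while the day 0 and day 8 samples overlapped. Mt1 rose from day 0 to day 4 with a log2 fold change of 2.03 ± 0.06 (SE, adjusted p = 1.21e-13, edgeR quasi-likelihood test on all genes). It fell by day 8, with a log2 fold change of -1.85 ± 0.06 against day 4 (adjusted p = 2.19e-12). The net log2 difference of day 8 from day 0 was 0.18 ± 0.06 (adjusted p = 0.0182), and with scaling to library size alone it was 0.07 (adjusted p = 0.329). Ordered by FPKM, Mt1 was between rank 153 and rank 176 of all genes in the day 0 samples, between rank 16 and rank 22 at day 4, and between rank 171 and rank 189 at day 8.

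Mt2, the second metallothionein of the locus on chromosome 8, had 49.5, 52.0 and 58.3 FPKM at day 0, 203.0, 260.8 and 291.6 FPKM at day 4, and 69.2, 68.3 and 92.0 FPKM at day 8. The groups did not overlap, with day 4 highest and day 0 lowest, and the day 4 samples were the most spread. Mt2 rose from day 0 to day 4 (log2 fold change 2.31 ± 0.13, SE, adjusted p = 1.2e-10) and fell from day 4 to day 8 (-1.67 ± 0.12, adjusted p = 1.68e-08). Day 8 was above day 0 in every sample, with a log2 difference of 0.63 ± 0.13 (adjusted p = 0.000538). The day 4 sample with the least Mt2, replicate 1, also had the lowest summed adipocyte markers, and replicate 3 was highest in both. At day 4, Mt1 was lowest in replicate 1 but highest in replicate 2, while Slc39a14 was highest in replicate 1 and lowest in replicate 3. The part of the adipocyte share in these levels was not tested. Together, Mt1 and Mt2 took 0.0224% ± 0.00155 of all expected counts before induction, 0.0896% ± 0.00667 at day 4 and 0.0246% ± 0.00172 in day 8 cells (SD, n = 3 per day). In transcript sequences of GENCODE vM21, 0 of the 1292 stretches of 50 bases of Mt1 and 0 of the 554 of Mt2 occur in another gene. An exon of Mt2 overlaps the antisense gene Gm45774, which was not analysed here. The other metallothionein genes, Mt3 and Mt4, were not analysed here.

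Whether both metallothioneins moved by the same factor was asked with the ratio of Mt1 to Mt2 FPKM within each sample. The ratio was 6.67, 6.80 and 6.47 in day 0 replicates 1 to 3, 6.34, 5.61 and 4.70 at day 4, and 5.36, 5.13 and 4.24 at day 8. All day 8 samples lay below all day 0 samples, and the day 4 samples overlapped those of day 8 but not those of day 0. The means were 6.65 ± 0.165, 5.55 ± 0.820 and 4.91 ± 0.596 (SD, n = 3 per day). An exact permutation test over the 280 ways to divide the 9 samples into 3 groups gave p = 0.0607 (adjusted p = 0.0607 over the 2 ratios tested), so a difference between days was not shown. Without day 4 replicate 3 the exact permutation p was 0.00714, and without day 4 replicate 1 it was 0.0321. With a replicate block it was 0.0278, which is the smallest p that the blocked test can give. Replicate 3 had the lowest ratio on every day, and whether the replicate numbers pair the samples is not known.

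**Figure D2:**
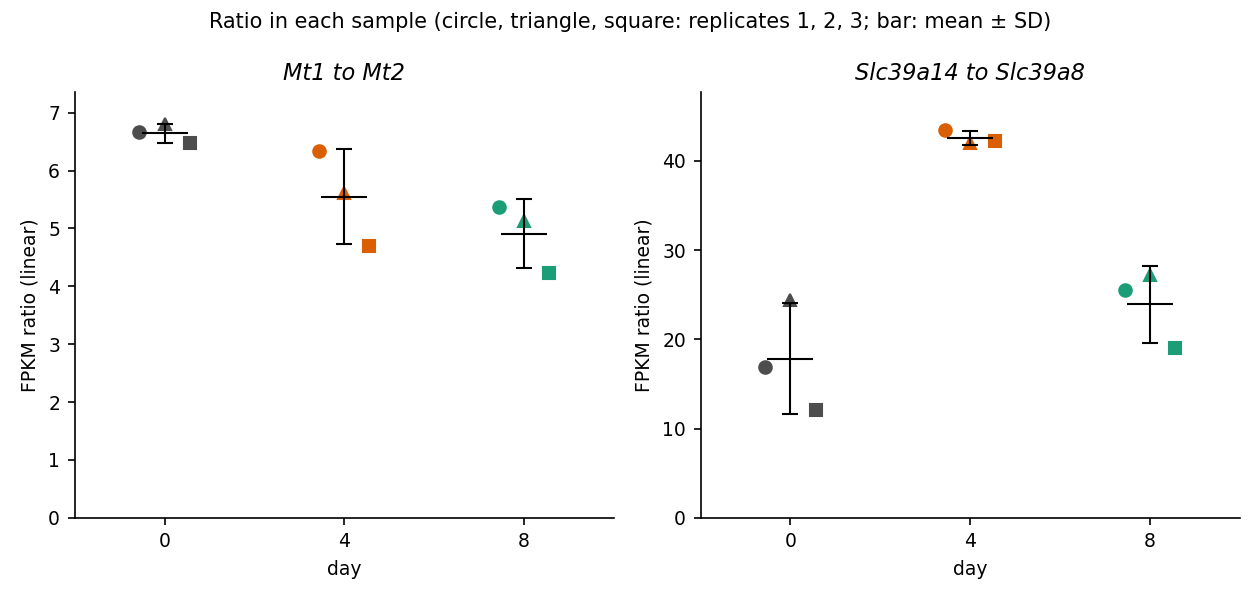
Ratio of FPKM values (vertical axis, linear, from 0) by day (horizontal axis), for Mt1 to Mt2 on the left and Slc39a14 to Slc39a8 on the right. Each symbol is a sample (replicates 1, 2 and 3 as circle, triangle and square), and lines and bars give the mean ± SD (n = 3 per day). The Mt1 to Mt2 ratio is lower at day 8 than at day 0 in every sample, and the Slc39a14 to Slc39a8 ratio is highest in the day 4 samples.

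Mtf1, which encodes the zinc sensor itself, was present at a low level. Its samples had 3.56, 3.39 and 3.09 FPKM at day 0, 3.72, 4.01 and 4.13 FPKM at day 4, and 3.87, 4.10 and 3.92 FPKM at day 8. All day 0 samples lay below all later ones, and the day 4 and day 8 samples overlapped. The log2 difference from day 0 was 0.31 ± 0.07 at day 4 (adjusted p = 0.000853) and 0.36 ± 0.07 at day 8 (adjusted p = 0.00021), both far below 2-fold. An exon of Mtf1 overlaps 1110065P20Rik on the other strand, a gene whose samples had 22.8 to 26.2 FPKM before induction, 40.0 to 45.9 on day 4 and 37.1 to 41.4 on day 8. The sources used here do not say whether counting used the strand, and without it reads of the overlap cannot be assigned to either gene.

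Both exporters among the 10 genes differed between days by less than 2-fold. Slc30a1, the ZnT1 protein that carries zinc out through the plasma membrane, had 1.66, 1.48 and 1.89 FPKM at day 0, 2.36, 2.25 and 2.51 at day 4, and 1.87, 1.83 and 2.21 at day 8. Each day 4 sample was above each sample of the other days, whose ranges overlapped. The log2 difference of day 4 from day 0 was 0.56 ± 0.11 (adjusted p = 0.000294), and that of day 8 from day 4 was -0.22 ± 0.11 (adjusted p = 0.107). The antisense gene 1700034H15Rik, which overlaps Slc30a1, had 0.04 to 0.13 FPKM.

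Slc30a5, or ZnT5, loads zinc into the early secretory pathway together with the product of Slc30a6. It had 15.6, 16.2 and 15.9 FPKM at day 0, 18.5, 16.9 and 18.0 at day 4, and 16.0, 15.7 and 15.3 at day 8. The day 4 samples were again above all others, with a log2 difference of 0.23 ± 0.05 from day 0 (adjusted p = 0.000824), while day 0 and day 8 overlapped. Its partner Slc30a6 had 12.6 ± 0.882, 13.1 ± 0.300 and 11.8 ± 0.216 FPKM on the 3 days (mean ± SD, n = 3), and day 4 did not differ from day 0 beyond that spread (log2 difference 0.12 ± 0.06, adjusted p = 0.109).

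Slc39a14, or ZIP14, an importer of zinc that also carries manganese and iron not bound to transferrin, followed the metallothioneins in direction. Its samples had 10.7, 10.8 and 9.70 FPKM at day 0, 24.3, 22.3 and 21.1 FPKM at day 4, and 7.16, 7.06 and 7.60 FPKM at day 8. The 3 days were fully separated, with day 4 on top and day 8 at the bottom. Slc39a14 rose from day 0 to day 4 (log2 fold change 1.19 ± 0.06, SE, adjusted p = 5.8e-11) and fell from day 4 to day 8 (-1.59 ± 0.06, adjusted p = 1.28e-11). Unlike Mt2, it ended below its start, with a log2 difference of -0.40 ± 0.07 between day 8 and day 0 (adjusted p = 5.13e-05).

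Slc39a8, or ZIP8, is the closest relative of Slc39a14 and carries the same metals. Its level was 0.63, 0.44 and 0.80 FPKM at day 0, 0.56, 0.53 and 0.50 at day 4, and 0.28, 0.26 and 0.40 at day 8, from 18.2 to 55.7 expected counts per sample. The day 8 samples were lowest, while day 0 and day 4 overlapped. The log2 difference was -0.19 ± 0.24 at day 4 against day 0 (adjusted p = 0.492) and -0.91 ± 0.26 at day 8 against day 0 (adjusted p = 0.00526). The whole difference lies near 2-fold. It passed that limit without day 0 replicate 2 (-1.09), without day 8 replicate 3 (-1.11) and with library size alone (-1.02), and it was smallest among the left-out samples without day 0 replicate 3 (-0.69). With limma on log2(FPKM + 1), a scale that shrinks low genes, it was -0.30.

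The ratio of Slc39a14 to Slc39a8 FPKM was 16.9, 24.4 and 12.1 in the day 0 samples, 43.4, 42.0 and 42.2 at day 4, and 25.6, 27.2 and 19.0 at day 8. The day 4 samples were above all others, and day 0 and day 8 overlapped. The means were 17.8 ± 6.20, 42.5 ± 0.774 and 23.9 ± 4.32 (SD, n = 3 per day), and the ratio differed between days in an exact permutation test (p = 0.00714, adjusted p = 0.0143 over 2 ratios). The smallest p that this test can give is 0.00357.

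Slc39a1, or ZIP1, a zinc importer of the plasma membrane, was the most abundant transporter of the 10 genes. It had 54.2, 55.8 and 58.5 FPKM at day 0, 79.2, 81.7 and 80.4 at day 4, and 88.9, 83.1 and 86.3 at day 8. Each day lay fully above the day before. The log2 difference from day 0 was 0.58 ± 0.05 at day 4 (adjusted p = 1.14e-08) and 0.73 ± 0.05 at day 8 (adjusted p = 6.97e-10), below 2-fold in both cases. Day 8 was above day 4 by 0.14 ± 0.05 on the log2 scale (adjusted p = 0.0177). That step did not pass with library size alone (adjusted p = 0.091), without day 8 replicate 1 (0.0667), or with limma on log2(FPKM + 1) (0.0721) or log2(FPKM + 0.1) (0.0738). In GENCODE vM21, 21.8% of its stretches of 50 bases also occur in the pseudogene Slc39a1-ps, so its level is uncertain. The next highest share was 1.29%, for Slc30a5.

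Slc39a6 and Slc39a10 encode ZIP6 and ZIP10, closely related importers that form a complex at the plasma membrane. Slc39a6 had 27.4, 27.6 and 27.8 FPKM at day 0, 12.8, 12.6 and 11.8 at day 4, and 10.5, 10.6 and 10.3 at day 8. The days were fully separated, each below the day before. Slc39a6 fell in the early phase (log2 fold change -1.09 ± 0.05, SE, adjusted p = 7.91e-12). At day 8 it was lower than at day 0 by -1.29 ± 0.05 (adjusted p = 1.21e-12). The step from day 4 to day 8 was small (-0.19 ± 0.05, adjusted p = 0.00553), and it did not pass by edgeR without day 4 replicate 2 (adjusted p = 0.0529).

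Slc39a10 had 6.72, 6.41 and 6.58 FPKM at day 0, 3.58, 3.00 and 2.98 at day 4, and 4.80, 4.54 and 4.74 at day 8. The days did not overlap here either, but day 4 was lowest and day 8 lay between. The log2 difference of day 4 from day 0 was -0.98 ± 0.08 (adjusted p = 7.34e-09), just short of 2-fold, and it passed that limit without day 4 replicate 1 (-1.07), with library size alone (-1.04) and with limma on log2(FPKM + 0.1) (-1.03), while it was -0.86 with limma on log2(FPKM + 1). Day 8 was above day 4 by 0.60 ± 0.08 on the log2 scale (adjusted p = 9.62e-06) and below day 0 (-0.37 ± 0.07, adjusted p = 0.000219).

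With an adjusted p under 0.05 and more than a 2-fold change, 4 of the 10 genes were called in the early phase, against 17.8% of the 13154 genes tested. Mt1, Mt2 and Slc39a14 were higher (background 9.77%) and Slc39a6 was lower (7.98%). In the late phase, Mt1, Mt2 and Slc39a14 were lower (background 2.81%) and 0 genes were higher by edgeR, DESeq2 or limma (4.24%), although 2 (Slc39a1 and Slc39a10) were higher by edgeR's unadjusted p under 0.05, so that 3 of 10 were called against 7.05% of all genes. Over the whole process, 1 of 10 was called against 18.0% of all genes, namely Slc39a6, which was lower (background 7.70%, against 10.3% higher). With the adjusted p alone, 9 genes passed in the early phase (7 higher and 2 lower, background 69.2%), 8 in the late phase (2 higher and 6 lower, 45.3%) and 9 over the whole process (5 higher and 4 lower, 71.0%). By edgeR without day 8 replicate 1, Slc30a5, Slc39a1 and Slc39a8 did not pass in the late phase (adjusted p = 0.0647, 0.0667 and 0.114). Slc30a5 and Slc39a8 also failed there without certain other single samples, as did Slc39a6 without day 4 replicate 2 (0.0529). The directional backgrounds of that looser rule were 35.5% higher and 33.7% lower early, 22.5% and 22.7% late, and 34.8% and 36.2% over the whole process. The median log2 fold change of the 10 genes was 0.44 in the early phase, -0.21 in the late phase and 0.13 over the whole process, where the medians of all genes were 0.0164, -0.0077 and -0.0178. Mt1, Mt2 and Slc39a14 were both higher early and lower late, as were 198 of all genes (1.51%), and both comparisons share the day 4 samples. In FPKM, the 5 genes whose day 4 samples were all above the rest were Mt1, Mt2, Slc30a1, Slc30a5 and Slc39a14 (background 13.3%). Of the 10 genes, Slc39a10 alone had all day 4 samples below the rest (10.6%), Slc39a1 alone increased in order from day 0 to day 8 without overlap (7.31%), and Slc39a6 alone decreased in that way (10.2%).

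**Figure D3:**
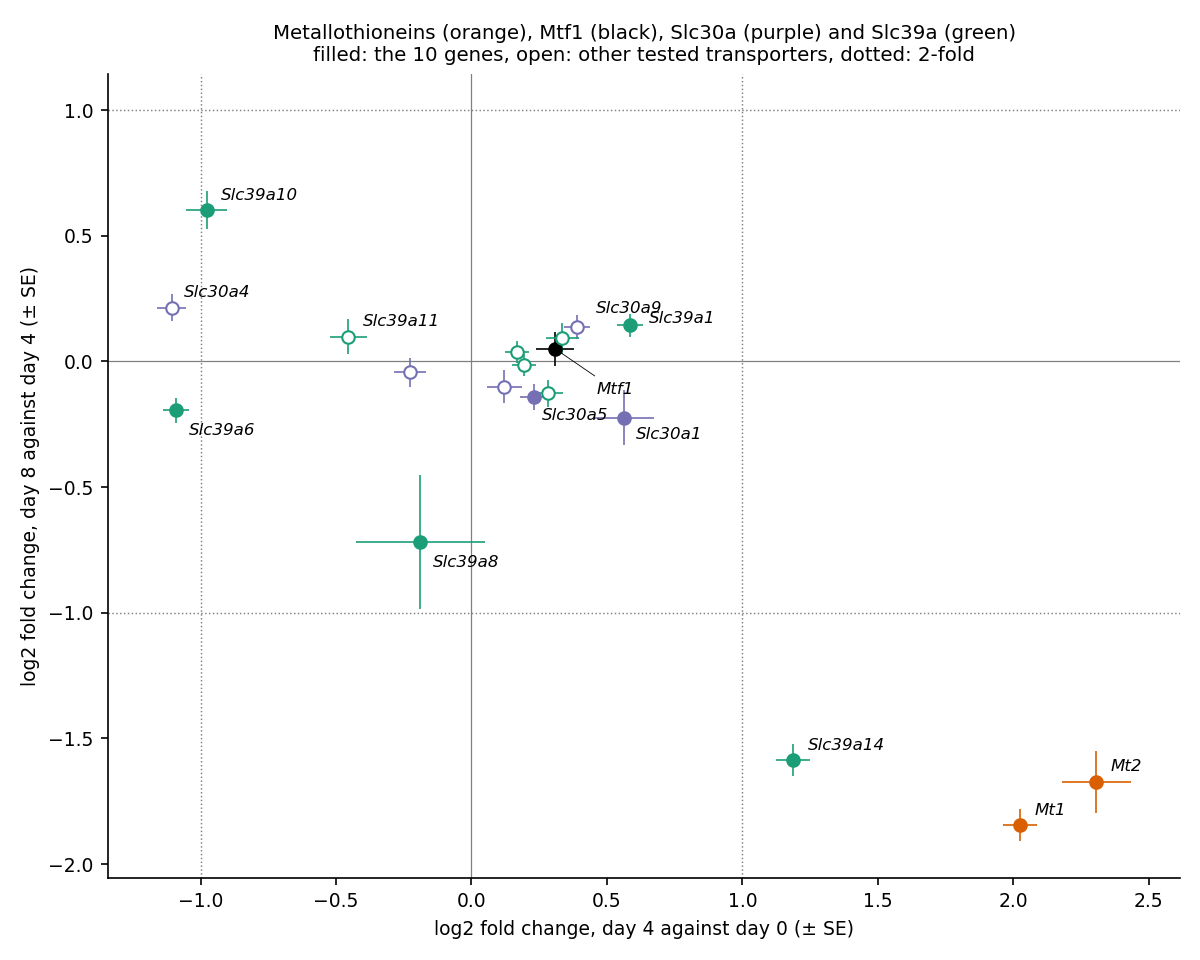
Log2 fold change of day 4 against day 0 (horizontal axis) and of day 8 against day 4 (vertical axis), each ± SE, for the metallothioneins, Mtf1 and all tested zinc transporters. Filled points are the 10 genes, open points the other transporters, and dotted lines mark 2-fold. Mt1, Mt2 and Slc39a14 sit at the lower right, beyond 2-fold in both phases, and both axes share the day 4 samples.

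Both transporter families were counted whole, with the 7 transporters above among them. Of 10 Slc30a genes, 6 passed the filter, and in the early phase 3 were higher and 2 lower by the adjusted p (35.5% and 33.7% of all genes tested), while 1 was called (17.8% of all genes). The called gene was Slc30a4, a vesicular zinc transporter, with 32.5 ± 1.81 FPKM in day 0 cells, 14.4 ± 0.837 in day 4 cells and 16.2 ± 0.490 in day 8 cells (SD, n = 3 per day). Its early log2 fold change was -1.11 ± 0.05 (SE, adjusted p = 2.07e-11). Of 14 Slc39a genes, 10 passed the filter, 6 of them higher and 3 lower by the adjusted p in the early phase. The 2 called, Slc39a14 and Slc39a6, are a share near the 17.8% of all genes. The most abundant importer was Slc39a7, which releases zinc from the endoplasmic reticulum, with 120.9 ± 2.46, 134.7 ± 0.698 and 129.4 ± 3.03 FPKM. Summed over the family, Slc30a genes had 91.8 ± 1.63, 80.7 ± 1.88 and 80.0 ± 1.01 FPKM on the 3 days, and Slc39a genes had 292.8 ± 2.02, 328.2 ± 3.36 and 311.9 ± 6.30 FPKM (SD, n = 3 per day). Summed metallothionein FPKM was 406.8 ± 27.9, 1625 ± 121.2 and 446.9 ± 31.9 on the same days.

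Of 5 other genes known as targets of MTF1, 0 were called higher and 1 was called lower by edgeR in the early phase (9.77% and 7.98% of all genes), and DESeq2 and limma gave the same counts. By edgeR's unadjusted p under 0.05, 1 was higher and 4 were lower, where 36.7% and 34.9% of all genes were. The gene lower by more than 2-fold was Slc40a1, which encodes the iron exporter ferroportin, with 8.02 ± 1.24 FPKM in day 0 cells, 2.17 ± 0.468 in day 4 cells and 7.38 ± 0.364 in day 8 cells (SD, n = 3 per day). Its log2 fold change was -1.82 ± 0.13 early (adjusted p = 3.91e-09) and 1.81 ± 0.13 late (adjusted p = 1.87e-08), opposite in sign to those of the metallothioneins in both phases. In the late phase 2 of the 5 were called higher and 0 lower (4.24% and 2.81% of all genes). Over the whole process 1 was called higher and 0 lower (10.3% and 7.70%). The stress-response gene Ndrg1 was called higher in the late phase (1.79 ± 0.20, adjusted p = 2.19e-06), from 0.633 ± 0.142 to 2.12 ± 0.181 FPKM, and was not called there with limma on log2(FPKM + 1) (0.94). It was also the gene called higher over the whole process (2.58 ± 0.22, adjusted p = 2.49e-08), where DESeq2 and limma called it too. The most abundant of the 5, Selenow, had 138.8 ± 3.94 FPKM at day 0 and 93.0 ± 2.35 at day 4, a log2 difference of -0.51 ± 0.05 (adjusted p = 4.47e-08).

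Since metallothioneins also bind copper, 12 genes of copper handling (transport, delivery and the enzyme gene Sod1) were counted beside them. Of these, edgeR, DESeq2 and limma each called 0 of 12 in any comparison. Of all genes, edgeR called 17.8%, 7.05% and 18.0% in the early, late and whole comparisons. By edgeR's unadjusted p under 0.05, 10 were higher and 1 lower in the early phase, against 36.7% and 34.9% of all genes tested. By the adjusted p alone, 10 were higher and 0 lower in the early phase (35.5% and 33.7% of all genes), 1 higher and 5 lower in the late phase (22.5% and 22.7%), and 7 higher and 1 lower over the whole process (34.8% and 36.2%). The median log2 fold change was 0.38 early and -0.10 late. The most abundant was Sod1, the copper and zinc superoxide dismutase, with 237.2 ± 9.37, 445.3 ± 45.8 and 364.9 ± 9.01 FPKM and an early log2 difference of 0.98 ± 0.06 (adjusted p = 8.05e-10).

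Genes that are known to respond to glucocorticoids were counted beside the metallothioneins. Of 10 such genes, 9 passed the filter, and 7 were called higher and 0 lower in the early phase (9.77% and 7.98% of all genes), while 0 were called higher and 7 lower in the late phase (4.24% and 2.81%). Early calls were 6 with limma and with library size alone, where Klf9 was just under 2-fold (0.93 to 0.98). Klf9 was called early but not late (log2 difference -0.23), Dusp1 late but not early (0.98), and Sgk1 in neither phase (0.26 and -0.91). The summed level of the list was 156.9, 179.4 and 175.1 FPKM in the day 0 samples, 796.7, 781.0 and 780.5 at day 4, and 191.5, 186.8 and 188.0 at day 8. The median log2 fold change was 1.78 early, -1.95 late and 0.58 over the whole process. Fkbp5, which encodes a co-chaperone of the glucocorticoid receptor, had 12.7 ± 1.35, 199.3 ± 1.97 and 14.3 ± 0.486 FPKM on the 3 days (SD, n = 3 per day). The most abundant at day 4 was Tsc22d3, the glucocorticoid-induced leucine zipper, with 30.8 ± 1.48, 278.0 ± 13.7 and 52.3 ± 1.80 FPKM. Zbtb16 was the gene with the greatest early log2 fold change of the list (6.53 ± 0.14, SE, adjusted p = 1.08e-15) and the only one called higher over the whole process. The list was chosen with earlier results of these samples known and is no independent evidence of a direction, and its part in the metallothionein levels was not tested.

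**Figure D4:**
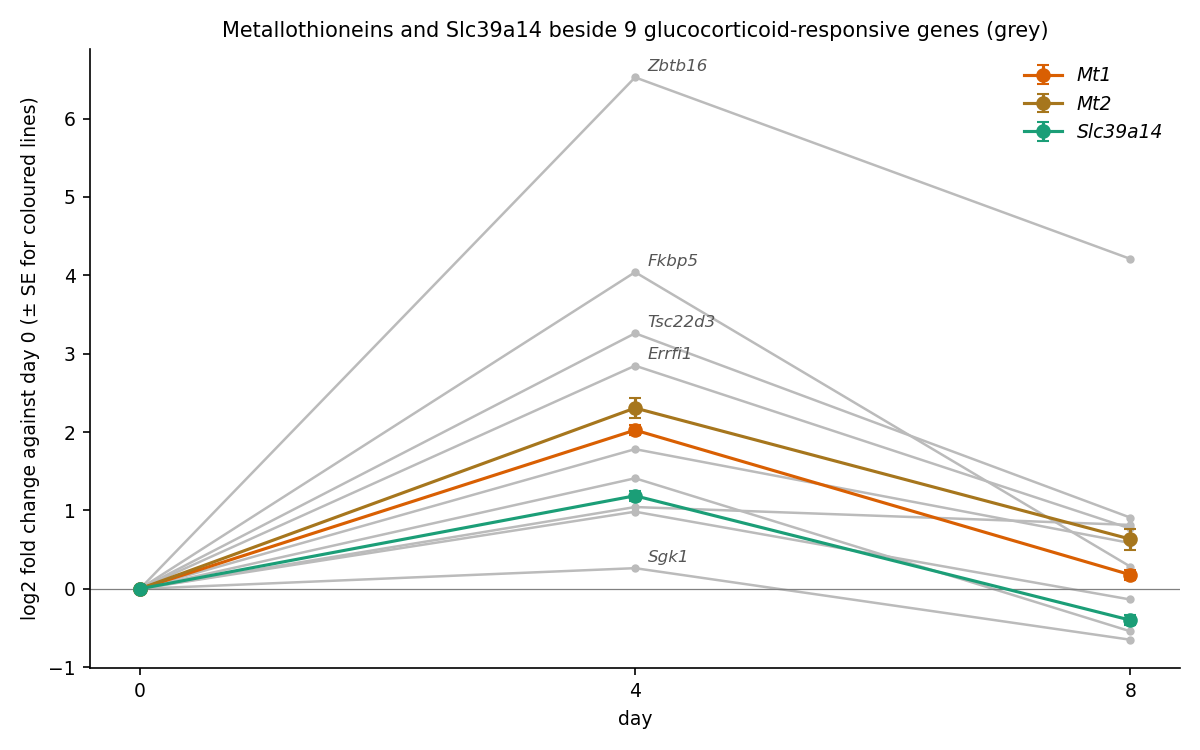
Log2 fold change against day 0 (vertical axis, with ± SE for the coloured lines) by day (horizontal axis) of Mt1, Mt2 and Slc39a14 beside 9 glucocorticoid-responsive genes in grey. The coloured lines peak at day 4 at 2.03, 2.31 and 1.19 and lie within the range of the grey ones, which runs from Sgk1 to Zbtb16.

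Markers of other cells were low. Of 6 macrophage markers 3 passed the filter, and all 6 together had 5.97 to 7.58 FPKM per sample at day 0, 3.77 to 4.14 by day 4 and 3.28 to 4.59 by day 8, with Cd14 as the most abundant and with Adgre1 at 0 in 8 samples and Itgam at 0 in 6. The labels' extraction text names ganglion tissue, and 10 sensory neuron markers were therefore examined. Their sum was 2.73 to 2.93 FPKM in day 0 samples, 1.82 to 1.98 in day 4 samples and 1.83 to 2.05 in day 8 samples, and Scn10a was at 0 in 8 of the 9 samples. Of the 10, 2 passed the filter, and they moved in opposite directions, with Avil called lower in the early phase (2.32 ± 0.272 to 0.513 ± 0.0115 FPKM) and Snap25 called higher (0.0267 ± 0.0462 to 1.12 ± 0.0473 FPKM, with 2 samples at 0). The part of other cells in the levels of the 10 genes was not tested. The macrophage marker Lyz2 was called lower in the early phase and higher in the late phase (1.80 ± 0.535, 0.40 ± 0.08 and 0.93 ± 0.135 FPKM on the 3 days), though in neither with limma on log2(FPKM + 1). The 5 endothelial markers summed to at most 0.57 FPKM in any sample, and Pecam1 was called higher at day 8 against both earlier days (0.13 ± 0.01, 0.133 ± 0.0451 and 0.257 ± 0.0666 FPKM), though in neither with limma or with library size alone, and at day 8 against day 4 not with DESeq2 (adjusted p = 0.0933). Preadipocyte and fibroblast markers, led by Vim, had sums of 4808 to 4970 FPKM in day 0 samples, 2581 to 2822 in day 4 samples and 2481 to 2565 in day 8 samples, and 2 of the 7, Dlk1 and Fn1, were called lower in the early phase (7.98% of all genes), with 6 lower and 1 higher by the adjusted p alone (33.7% and 35.5%). Dlk1 was called higher again in the late phase (log2 fold change 1.24 ± 0.06, adjusted p = 9.35e-11), and the gene higher early was Pdgfra, by 0.84 ± 0.05 (adjusted p = 4.34e-10).

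The genes with the profile most like that of Mt1, Mt2 and Slc39a14, the members with the widest range of day means, were found by the distance between log2 CPM values (depth-scaled counts) centred on each gene's mean over the 9 samples. Among 11467 genes, the nearest to Mt1 were Gas6 (distance 0.477), Adamtsl4 (0.485), Tob2 (0.506), Ccdc85a (0.518) and Mertk (0.563). The nearest to Mt2 were Ddit4 (0.594), Gas6 (0.612), Tob2 (0.642), Mt1 itself (0.677) and Gdpd2 (0.734). Gas6 encodes a ligand of the receptor tyrosine kinase made from Mertk, and Ddit4 an inhibitor of mTORC1 signalling. Those nearest to Slc39a14 were Slc37a2 (0.433), Pld1 (0.512), Slc29a3 (0.514) and Pvrl1 (0.528). These genes share the 9 libraries and their depth with the members, and the distances are a description without a test.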

How the data were processed

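Total RNA of 3T3-L1 cells was sequenced at 3 stages with 3 samples each, grouped by the day in the sample titles. Per the study's methods, the authors removed low-quality reads, mapped with HISAT/Bowtie2 and quantified with RSEM. The submitters' processing notes name Bowtie2 and CASAVA 1.4, and the genome build is not given in the sources used here. The authors deposited RSEM's expected counts per gene, which are estimated counts without normalization (29.8% are not whole), and FPKM values scaled to gene length and depth. Counting shares out reads that fit several genes, which can blur a gene and its near copies.

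Expected counts were rounded and fitted in R 4.3.3 with edgeR 4.0.16 (filterByExpr, TMM factors of 0.954 to 1.05, glmQLFit and glmQLFTest, 1 coefficient per day, all 9 samples), with Benjamini-Hochberg adjustment over 13154 genes. Genes were called at an adjusted p under 0.05 and more than 2-fold. The common biological coefficient of variation was 0.0538. A depth of 18216114 to 20452144 puts 3 counts at 0.147 to 0.165 CPM, which covers counting error only. The fits were tested on simulated data.

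The 10 genes and all lists were chosen with earlier results of these data known. Beyond the 10 genes, the text names list genes called in at least 1 comparison, the most abundant gene of a list, and the 5 nearest genes (smallest distance of centred log2 CPM, average log2 CPM of at least 1). Slc30a6, Sgk1, Pdgfra and the marker genes at 0 were named outside this rule, after their values were seen. Some genes covered by these rules are not reported here. Promoters are from RefSeq (GRCm38.p6). Alternatives were RLE factors (DESeq2 1.42.0), library size alone, other filters, DESeq2, edgeR's exact test, limma 3.58.1 on log2(FPKM + 1) and log2(FPKM + 0.1), a replicate block and leaving out each sample. Cell images and RT-PCR were not analysed here.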

Additional observations from a re-analysis of the deposited data

How the results depend on the processing

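With no limit on the fold change, the genes called were 9 in the early phase, 8 in the late phase and 9 over the whole process. In the late phase, Slc30a5, Slc39a1 and Slc39a8 were lost from these without day 8 replicate 1. By edgeR, Slc39a8 was also lost without day 8 replicate 2 (adjusted p = 0.13) and without each day 4 replicate in turn (0.0537 to 0.0944). Slc30a5 was also lost without day 4 replicate 1 (0.115) or 3 (0.0612) and without day 8 replicate 2 (0.0794) or 3 (0.181). It was lost with RLE factors (0.0627) and with no filter on low counts (0.0714) too. Slc39a6 was lost without day 4 replicate 2 (0.0529). DESeq2 lost Slc30a5 (adjusted p = 0.126) and Slc39a8 (adjusted p = 0.0782) in that phase. With the 2-fold limit, leaving out each sample in turn gave 4 to 5 genes early (Slc39a10 was added without day 4 replicate 1), 3 to 3 late and 1 to 2 over the whole process (Slc39a8 was added without day 0 replicate 2 and without day 8 replicate 3). Scaling to library size alone gave 5, 3 and 2 genes (Slc39a10 and Slc39a8 added), limma on log2(FPKM + 0.1) gave 5, 3 and 1 (Slc39a10 added), and with library size alone the median shift of all genes over the whole process was -0.111 on the log2 scale, with Mt1 at 0.07 (adjusted p = 0.329) and Slc30a1 at 0.23 (adjusted p = 0.0794). The log2 difference of day 8 from day 0 changed sign for Slc30a5 with library size alone (-0.023), limma on log2(FPKM + 1) (-0.022) and limma on log2(FPKM + 0.1) (-0.023), and the early one of Slc39a8 without day 0 replicate 3 (0.029, over a range of -0.37 to 0.03 when samples were left out). Of the alternative log2 fold changes of the 10 genes, 530 kept direction and call, 6 passed the 2-fold limit newly and 4 changed sign. Whether the replicate numbers pair the samples is not known. Over the genes tested, deviations from the day means had correlations of -0.0348 to 0.075 between same-numbered samples (mean 0.0308). Between differently numbered samples the correlations were -0.1 to 0.0628 (mean -0.0154). With a replicate block 4, 3 and 1 genes were called.

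The log2 ratio of Mt1 to Mt2 at day 8 minus that at day 0 was -0.44. It was also -0.44 with the replicate block and ranged from -0.51 to -0.34 when samples were left out. The exact permutation test, which compares the ratio across all 3 days and not this difference, gave p = 0.0278 with the block. When samples were left out, the same exact permutation test gave p = 0.00714 to 0.143. With the block, the exact permutation test gave p = 0.0278 for the Slc39a14 to Slc39a8 ratio too. For both ratios that is the smallest p that the blocked test can give. The log2 ratio of Slc39a14 to Slc39a8 at day 8 minus that at day 0 was 0.46. It ranged from 0.22 to 0.72 when samples were left out. Over all genes, the early, late and whole phases had 2335, 928 and 2369 calls. Requiring 10 counts in every sample and limma on log2(FPKM + 1) both gave fewer. For limma, these were 708 higher and 565 lower early, 224 and 136 late, and 753 and 528 over the whole process. For the 10-count filter, they were 831 and 754, 310 and 173, and 913 and 682. The causes were not tested. Depth limits Slc39a8 most of the 10 genes, at 18.2 to 55.7 expected counts per sample.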
